A study of Rattus norvegicus with 6 samples.

Results

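The genes described here carry glucose into the cell and along glycolysis to lactate. They were the 10 genes named Slc2a1, Slc2a3, Hk1, Hk2, Pfkl, Pfkp, Aldoa, Pgk1, Ldha and Pdk1, of 34538 genes in all. Each was taken by its symbol in the deposited gene table, and a symbol with more than 1 row would have been represented by the row with most counts. The genes were chosen by measured values: the set was built around the difference of Slc2a3 between the groups in these same libraries, set against Slc2a1 and the enzymes. Every MgPA-Gel against Gel value of the 10 genes below is therefore a description with no test. RNA was taken from the fractured femur of Sprague Dawley rats, all of them female. All animals had both ovaries removed at 8 weeks of age, had the left femur cut across 12 weeks later and had it fixed with a nail of 1.2 mm inside the marrow cavity. In the Gel group (3 libraries) the gel alone was injected around the fracture, and in the MgPA-Gel group (3 libraries) the material was MgPA-Gel, described by the title as an adhesive hydrogel based on plant phosphate coordination compounds. The sample was 1 cm of bone centred on the break, so each library mixes bone, callus, marrow and adjacent tissue. When the bone was harvested was not given in the sources used here. Whether a group's 3 samples are 3 animals is not stated by the labels, and all spreads are between these samples and may be technical.

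Glucose enters cells through facilitative transporters of the SLC2A family. GLUT1, encoded by Slc2a1, is the widely expressed form that also serves osteoblasts in mice, and GLUT3, encoded by Slc2a3, is a high-affinity form best known from neurons, platelets and white blood cells. Hexokinases trap the sugar as glucose 6-phosphate, phosphofructokinases commit it to glycolysis, aldolase splits it, phosphoglycerate kinase harvests ATP, and lactate dehydrogenase A turns the resulting pyruvate into lactate. Pdk1 phosphorylates and switches off the pyruvate dehydrogenase complex, which limits the use of pyruvate inside the mitochondrion. In fracture callus, where vessels are torn, many of these genes are known targets of the hypoxia-inducible factor HIF-1. Several steps also have separate isoforms in skeletal muscle, encoded by Slc2a4, Pfkm, Pgam2 and Eno3, whereas Aldoa is the main aldolase both of muscle and of most other tissues.

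The RefSeq promoter table (build GRCr8, 250 bases before to 50 after a gene's start) matched 8 of the 10 genes with 11 windows; Slc2a3 and Pgk1 were not matched. The core of the HIF-binding element was searched as ACGTG or GCGTG on either strand, counting every start position, so that the palindrome in the Ldha window counts on both strands. Of 33469 windows of this length, 41.6% held at least 1 match, so a single match is common. The Slc2a1 window held 4 matches, Ldha 6, Pdk1 4, Pfkl 2 and Pfkp 2. One Hk1 window held 1 and the other 0, the Hk2 window held 0, and the 3 Aldoa windows held 0, 0 and 1. The transporter Slc2a1, the hexokinase Hk2 and the lactate-forming Ldha are shown because they are the steps at the entry and the exit of the pathway. Capitals mark the HIF cores in these windows, chr5:138002272-138002571 on the plus strand, chr4:116841226-116841525 on the minus strand and chr1:106507842-106508141 on the plus strand.
Slc2a1: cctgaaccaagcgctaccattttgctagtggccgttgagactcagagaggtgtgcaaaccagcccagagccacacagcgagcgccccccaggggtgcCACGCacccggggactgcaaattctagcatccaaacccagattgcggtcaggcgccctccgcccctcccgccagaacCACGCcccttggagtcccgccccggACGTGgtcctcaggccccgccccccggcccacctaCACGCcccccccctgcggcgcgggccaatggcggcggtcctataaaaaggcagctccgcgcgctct
Hk2: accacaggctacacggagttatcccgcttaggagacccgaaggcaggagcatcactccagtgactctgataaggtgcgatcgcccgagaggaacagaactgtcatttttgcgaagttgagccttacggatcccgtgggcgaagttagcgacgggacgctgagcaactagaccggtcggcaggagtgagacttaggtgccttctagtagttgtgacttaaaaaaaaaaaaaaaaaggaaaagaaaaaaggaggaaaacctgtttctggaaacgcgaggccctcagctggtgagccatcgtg
Ldha: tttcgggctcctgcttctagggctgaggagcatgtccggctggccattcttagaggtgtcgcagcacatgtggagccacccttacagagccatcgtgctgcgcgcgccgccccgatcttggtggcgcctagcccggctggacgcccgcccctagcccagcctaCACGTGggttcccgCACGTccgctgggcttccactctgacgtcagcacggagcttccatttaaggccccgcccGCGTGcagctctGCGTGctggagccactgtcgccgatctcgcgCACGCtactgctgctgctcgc

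Aldoa has 3 start sites in the RefSeq table and was the member that varied most within groups, so its windows are shown with another motif in capitals. This motif, CTA and TAG with any 4 bases between them, is a loose form of the site of MEF2 factors, which drive muscle genes and whose site has A or T at the 4 middle bases. It reads the same on both strands and occurred in 3.84% of the 33469 windows. The first window held no match and the other two held 1 each, with AATA in the middle in window 2 and GTTC in window 3. They lie on the minus strand at chr1:190837972-190838271, chr1:190837599-190837898 and chr1:190836728-190837027. A match describes these letters only, and binding was not measured.
Aldoa window 1: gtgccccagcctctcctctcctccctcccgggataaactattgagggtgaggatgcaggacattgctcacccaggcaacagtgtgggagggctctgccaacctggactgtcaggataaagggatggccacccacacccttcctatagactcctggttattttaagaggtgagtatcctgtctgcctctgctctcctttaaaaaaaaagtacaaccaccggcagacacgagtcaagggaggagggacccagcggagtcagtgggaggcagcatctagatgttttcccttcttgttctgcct
Aldoa window 2: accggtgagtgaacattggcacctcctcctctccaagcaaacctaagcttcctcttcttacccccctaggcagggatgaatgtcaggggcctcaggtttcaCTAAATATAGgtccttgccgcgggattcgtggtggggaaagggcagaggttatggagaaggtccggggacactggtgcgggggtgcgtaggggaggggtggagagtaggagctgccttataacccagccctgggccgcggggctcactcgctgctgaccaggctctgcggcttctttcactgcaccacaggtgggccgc
Aldoa window 3: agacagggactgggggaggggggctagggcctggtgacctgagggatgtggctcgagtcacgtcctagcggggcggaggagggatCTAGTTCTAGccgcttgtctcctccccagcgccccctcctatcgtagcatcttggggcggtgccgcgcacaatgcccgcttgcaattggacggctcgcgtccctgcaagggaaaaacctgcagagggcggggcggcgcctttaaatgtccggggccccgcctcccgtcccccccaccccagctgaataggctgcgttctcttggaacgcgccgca

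Total gene counts were 13.6 to 18.2 M (mega) per library. The 10 genes took 0.133% to 0.260% of the counts in 5 libraries and 0.603% in MgPA-Gel 1. MgPA-Gel 1 stood apart in its muscle content. Of 15 skeletal muscle markers 12 were found, none of them at 0 in any library, and their summed level was 14.3 to 573 CPM in the Gel libraries and 118, 44918 and 1655 CPM in MgPA-Gel 2, 1 and 3. CPM here are counts per M counts, normalised with TMM-adjusted library sizes. MgPA-Gel 2 stood apart in some of the 11 neutrophil markers. S100a9 was at 1229 CPM and the receptor Csf3r at 628 CPM there, against at most 371 and 44.8 CPM in any other library. Ltf was at 0 in MgPA-Gel 2, and the sum of the 11 was highest in MgPA-Gel 3, at 3827 against 3367 CPM. In MgPA-Gel 3 most of that sum was Mmp9. The summed macrophage markers were also highest in MgPA-Gel 2, at 7299 CPM. The share of counts from mitochondrial genes was 24.0% in Gel 1 and 25.9% in MgPA-Gel 1, against 5.29% to 8.83% in the other libraries. The bone label held in every library: all 9 osteoblast markers were detected, at a summed 41500 to 108092 CPM. Across all genes, edgeR's quasi-likelihood test called 0 of 14818 at a Benjamini-Hochberg adjusted p of 0.05 (0%), with 389 at an unadjusted p under 0.05 (2.63%), and DESeq2 called 10. Of the 14818 genes, 8116 had a higher and 6702 a lower mean in MgPA-Gel.

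Slc2a3 was the least abundant of the 10 genes and was lower in all MgPA-Gel libraries than in any Gel library. It had 63, 91 and 15 counts in Gel 1, 2 and 3 against 12, 11 and 7 counts in MgPA-Gel 1, 2 and 3, which are 4.32, 5.26 and 1.10 CPM and 0.750, 0.694 and 0.410 CPM. Gel 1 and Gel 2 were several times above the rest, while Gel 3 lay close to the MgPA-Gel libraries. The means were 3.56 ± 2.18 CPM (SD, n = 3) and 0.618 ± 0.183 CPM (SD, n = 3), and the log2 fold change of MgPA-Gel over Gel was -2.52 ± 0.67 (SE, edgeR). Exact Poisson 95% intervals, which cover counting error only, ran from 8.40 to 24.7 counts for Gel 3 and from 6.20 to 21.0, 5.49 to 19.7 and 2.81 to 14.4 for MgPA-Gel 1, 2 and 3. The interval of Gel 3 overlapped those of all 3 MgPA-Gel libraries. It did so in CPM as well, at 0.615 to 1.81 against 0.388 to 1.31, 0.346 to 1.24 and 0.165 to 0.844. Overlap of intervals is not a test of a difference, and the difference of Gel 3 from these libraries was not tested. Slc2a3 was the only 1 of the 10 genes whose groups did not overlap. Among all genes tested, 3.62% lay lower in MgPA-Gel without overlap and 6.88% did not overlap in either direction; nothing is read from the comparison, since this contrast chose the gene.

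The row named Slc2a3 did not hold all counts assigned to this protein. It is gene ENSRNOG00000049298 on chromosome 4, 155752447 to 155763500 on the minus strand (build not given in the sources used here). Its listed length of 1482 bases is a multiple of 3, as a coding sequence would be. A second protein-coding row, LOC100909595 (ENSRNOG00000008376), lay on the same strand of chromosome 4 at 155408233 to 155631856. The deposited annotation gave it the same Swiss-Prot protein, and its length was 3942 bases. In the deposited table this second row spanned Nanog, Gdf3 and Dppa3 and lay between Apobec1 and Foxj2, while the row named Slc2a3 lay between Necap1 and Clec4a2. In RefSeq GRCr8, Slc2a3 lies between Nanog and Foxj2. A processed pseudogene with the same protein entry had 0 counts in all libraries.

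LOC100909595 had 5, 13 and 10 counts in Gel 1, 2 and 3 against 7, 22 and 9 in MgPA-Gel 1, 2 and 3. Its highest library was MgPA-Gel 2 and its lowest Gel 1, so the groups overlapped, and its log2 fold change was 0.36 ± 0.67. Over the 6 libraries it held 66 counts against 199 on the Slc2a3 row. These are 24.9% of the counts on the 3 rows. How reads that fit both rows were counted was not given in the sources used here, so the level of either row is uncertain.

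Summing both rows, an alternative chosen after seeing the data, gave 68, 104 and 25 counts in Gel against 19, 33 and 16 in MgPA-Gel. These are 4.66, 6.01 and 1.83 CPM against 1.19, 2.08 and 0.936 CPM. The groups then overlapped, since MgPA-Gel 2 lay above Gel 3. The means were 4.17 ± 2.13 and 1.40 ± 0.602 CPM (SD, n = 3 each) and the log2 fold change was -1.57 ± 0.56, against -2.52 for the single row. Gel 1 and Gel 2 were the highest libraries in the sum.

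**Figure D1:**
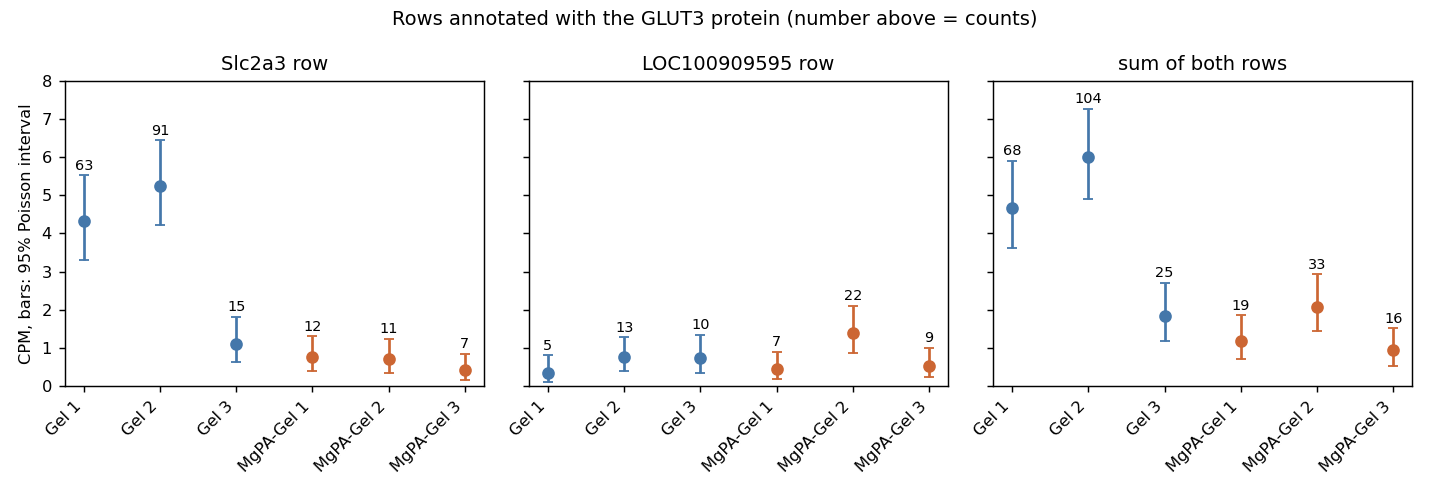
Level in CPM (y axis, linear) of the Slc2a3 row, the LOC100909595 row and their sum in each of the 6 libraries (x axis; Gel blue, MgPA-Gel orange), with exact Poisson 95% intervals as bars and counts above them. The Slc2a3 row is at 63 and 91 counts in Gel 1 and 2 while the other 4 libraries have 7 to 15, and the sum of both rows overlaps between the groups.

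Markers of cells known to use GLUT3 were read beside these values. The summed level of 8 platelet markers was 43.5 to 79.9 CPM in Gel against 61.8 to 63.8 CPM in MgPA-Gel, with Gp1ba and Gp5 at 0 in some libraries. The 8 neuron markers summed to 21.8 to 48.2 CPM and 19.9 to 53.6 CPM, and Snap25, Syt1, Rbfox3, Nefl and Nefm were at 0 in some libraries. The 10 macrophage markers summed to 3926, 6376 and 2732 CPM in Gel 1, 2 and 3 against 3280, 7299 and 3585 CPM in MgPA-Gel 1, 2 and 3, with Marco at 0 in 5 libraries. The sums of these 3 lists overlapped between the groups. Of the 9 macrophage markers tested, 8 had a higher mean in MgPA-Gel, at a median log2 fold change of 0.22. At an unadjusted edgeR p under 0.05 there were 2, both higher, and 1 was higher without overlap. Among all genes tested, 1.78% and 3.26% were. A higher mean was seen in 2 of 4 platelet and 1 of 2 neuron markers tested. The 11 neutrophil markers summed to 1213 to 2210 CPM in Gel against 1897 to 3827 CPM in MgPA-Gel, but most of the sum was Mmp9 in 5 of the libraries, a protease that osteoclasts also make (1994 of 2210 CPM in Gel 1 and 3627 of 3827 CPM in MgPA-Gel 3). Gene by gene, 9 of the 10 neutrophil markers tested had a higher mean in MgPA-Gel, at a median log2 fold change of 1.85. Ltf was at 0 in 5 libraries. EdgeR called none of the markers at an adjusted p of 0.05. At an unadjusted p under 0.05 there were 3 neutrophil markers, all higher in MgPA-Gel, where 1.78% of all genes tested were.

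The marker lists with a lower mean in MgPA-Gel for every gene tested, as for Slc2a3, were those of mast cells (9 of 9, median log2 fold change -1.47), B cells (7 of 7, median -0.36) and endothelial cells (7 of 7, median -0.21). EdgeR called none of these genes at an adjusted p of 0.05. At an unadjusted p under 0.05 there were 5 mast cell genes and 1 B cell gene, where 0.844% of all genes tested were lower. The lists were picked for this shared direction, and others went the opposite way in every gene tested. These were T cells (7 of 7, median 0.29) and skeletal muscle (12 of 12, median 5.72). At an unadjusted p under 0.05 there were 0 and 4 of their genes, where 1.78% of all genes tested were higher. The 9 mast cell markers, none of them at 0 in any library, summed to 72.7, 296 and 297 CPM in Gel 1, 2 and 3 against 70.7, 69.3 and 114 CPM in MgPA-Gel 1, 2 and 3. Gel 2 was high for both Slc2a3 and the mast cell sum, whereas Gel 1 was high for Slc2a3 alone and Gel 3 for the mast cell sum alone. The B cell sum was 130, 157 and 208 CPM in Gel and 169, 124 and 90.7 CPM in MgPA-Gel, so the groups overlapped. The part of all these cell types in the Slc2a3 result was not tested. In such bulk samples, fewer cells of a type and less RNA per cell cannot be told apart.

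Slc2a1 did not share the pattern of Slc2a3. It was at 56.3, 79.9 and 28.1 CPM in Gel 1, 2 and 3 against 34.9, 183 and 61.2 CPM in MgPA-Gel 1, 2 and 3. MgPA-Gel 2 was 2.29-fold above the next library, Gel 2, and 6.50-fold above the lowest, Gel 3, and the groups overlapped. The means were 54.8 ± 25.9 and 93.0 ± 78.9 CPM (SD, n = 3 each), with a log2 fold change of 0.76 ± 0.67. Without MgPA-Gel 2 the value was -0.19, so that 1 library set its sign; without MgPA-Gel 1 it was 1.15 and without Gel 3 it was 0.42. MgPA-Gel 2 was also the library with the highest S100a8, S100a9, Csf3r and Cxcr2 and the highest macrophage marker sum. The sum of the 11 neutrophil markers was highest in MgPA-Gel 3. The part of these genes in the Slc2a1 level of MgPA-Gel 2 was not tested. The within-group SD of Slc2a1 on the log2 scale was above that of 90.2% of the genes tested, and the Slc2a3 SD above that of 86.7%.

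Per length, Slc2a1 exceeded Slc2a3 in every library. Deposited FPKM (counts per kilobase and per M counts of a library size set by the authors) of Slc2a1 were 21.9, 30.9 and 10.8 in Gel against 13.5, 70.0 and 23.7 in MgPA-Gel. Those of Slc2a3 were 2.94, 3.55 and 0.741 in Gel against 0.507, 0.465 and 0.278 in MgPA-Gel. The FPKM of Slc2a1 was thus 7.46, 8.70 and 14.6 times that of Slc2a3 in Gel 1, 2 and 3 against 26.6, 151 and 85.4 times in MgPA-Gel 1, 2 and 3. The ratio had no overlap between the groups, as the choice of Slc2a3 would give. The mean log2 ratio of Slc2a3 to Slc2a1 was -3.30 ± 0.51 in Gel and -6.13 ± 1.27 in MgPA-Gel (SD, n = 3 each), a difference of -2.83, and the edgeR fold changes of the genes differed by -3.28. With both GLUT3 rows summed that second value was -2.33.

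Of 12 other glucose transporter symbols, 8 genes passed the filter on low counts, 2 with a higher and 6 with a lower mean in MgPA-Gel, at a median log2 fold change of -0.07 against 0.03 over all genes tested. None passed the edgeR threshold. Within the SLC2A family, Slc2a1 held 34.0%, 44.0% and 19.1% of the summed FPKM in Gel 1, 2 and 3 against 16.6%, 59.1% and 36.2% in MgPA-Gel 1, 2 and 3, while Slc2a3 held at most 5.05%. Slc2a4, the insulin-responsive GLUT4 of muscle and fat, held 1.27% to 5.23% in 5 libraries and 47.9% in MgPA-Gel 1, the library with most muscle marker RNA. Its CPM in that library was 97.6, or 11.7-fold above the next. Slc2a6 was at 15.5 ± 5.43 and 23.8 ± 13.3 CPM and Slc2a8, an intracellular transporter, at 19.3 ± 3.15 and 18.4 ± 1.99 CPM (SD, n = 3 per group). Slc2a5, the fructose transporter, was at 4.18, 4.62 and 5.86 CPM in Gel against 2.13, 2.90 and 3.92 CPM in MgPA-Gel. Its groups did not overlap, with a log2 fold change of -0.71 ± 0.35 and an edgeR adjusted p of 0.998.

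**Figure D2:**
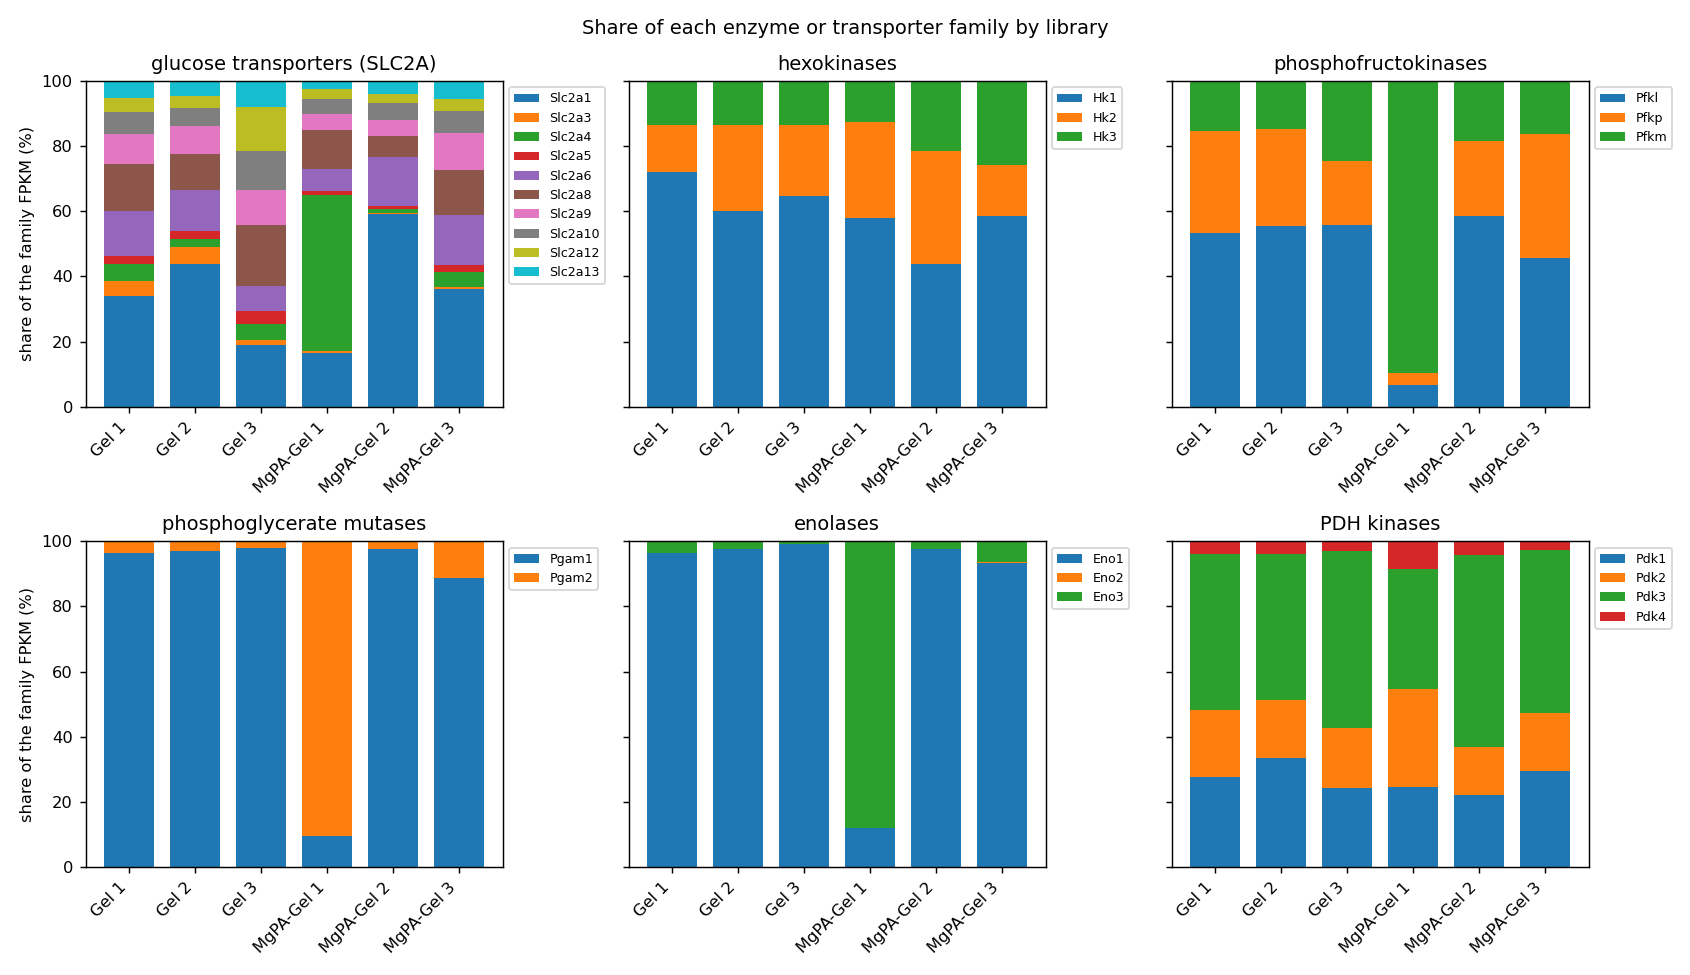
Share of the summed FPKM of a family (y axis, percent) held by each isoform in each library (x axis), for 6 families from glucose transport to pyruvate dehydrogenase (PDH) kinase. MgPA-Gel 1 stands apart in 4 families, with Slc2a4 at 47.9%, Pfkm at 89.5%, Pgam2 at 90.6% and Eno3 at 88.1%.

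The hexokinases showed no common direction. Hk1, the housekeeping form bound to mitochondria, was at 89.5, 71.9 and 49.7 CPM in Gel against 58.0, 66.4 and 87.6 CPM in MgPA-Gel. Both groups spanned nearly the same range, and the log2 fold change was 0.01 ± 0.26. Hk2, the form induced by insulin and hypoxia, was at 36.7, 64.3 and 33.7 CPM in Gel against 59.9, 106 and 47.9 CPM in MgPA-Gel, and the log2 fold change was 0.67 ± 0.38. Its highest library was MgPA-Gel 2, at 1.65-fold the next, Gel 2, and the groups overlapped. Without MgPA-Gel 2 the value was 0.26, and it stayed above 0 with each library left out (0.26 to 1.02). Hk1 held most hexokinase FPKM in 5 libraries (57.9% to 71.9%) and 43.8% in MgPA-Gel 2, where Hk2 held 34.6%. Hk3, a form of white blood cells, held at most 25.7% of the family, in MgPA-Gel 3, and was at 17.6 ± 4.35 CPM in Gel against 34.1 ± 16.6 CPM in MgPA-Gel (SD, n = 3 each; edgeR adjusted p = 0.998).

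The member phosphofructokinases likewise overlapped between the groups. Pfkl, the liver-type subunit, was at 109, 99.9 and 82.2 CPM in Gel against 56.4, 83.9 and 102 CPM in MgPA-Gel, and the log2 fold change was -0.27 ± 0.25. Pfkp, the platelet-type subunit, was at 52.8, 43.8 and 23.6 CPM in Gel against 26.7, 26.8 and 69.8 CPM in MgPA-Gel, and its log2 fold change was 0.04 ± 0.47. MgPA-Gel 1 was the lowest library for Pfkl and MgPA-Gel 3 the highest for Pfkp. The muscle-type subunit Pfkm showed the opposite of Pfkl in MgPA-Gel 1: it was at 818 CPM there, 21.1-fold above the next library, and held 89.5% of phosphofructokinase FPKM, against 14.6% to 24.4% in the other 5. Pfkl held 6.64% of the family in that library and 45.7% to 58.5% elsewhere.

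Aldoa, the aldolase that splits fructose 1,6-bisphosphate, was the most abundant of the 10 genes and the most variable within groups. It was at 870, 679 and 458 CPM in Gel against 4728, 545 and 817 CPM in MgPA-Gel. A single library, MgPA-Gel 1, lay 5.44-fold above the next, Gel 1, while MgPA-Gel 2 and 3 lay within the Gel range. The means were 669 ± 206 and 2030 ± 2340 CPM (SD, n = 3 each) and the log2 fold change was 1.60 ± 0.83; without MgPA-Gel 1 it was 0.03. With the muscle level of each library as a term in the edgeR model it was -0.21. MgPA-Gel 1 was also the library with 44918 CPM of muscle markers, whose part in the result was not tested beyond these 2 fits. The within-group SD of Aldoa was above that of 93.5% of the genes tested. Aldoa held 98.9% to 99.9% of the FPKM of Aldoa and Aldoc in each library, so no shift to Aldoc accompanied the high value. Counts per gene cannot show which Aldoa start site was used.

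Pgk1, on the X chromosome, was at 514, 451 and 270 CPM in Gel against 602, 357 and 431 CPM in MgPA-Gel, and the log2 fold change was 0.17 ± 0.31. Its groups overlapped, with the highest library MgPA-Gel 1 and the lowest Gel 3. Without MgPA-Gel 1 the value was -0.06.

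Ldha, the last step to lactate, was at 740, 689 and 362 CPM in Gel against 1274, 593 and 706 CPM in MgPA-Gel. MgPA-Gel 1 was again highest, at 1.72-fold the next library, and the log2 fold change was 0.52 ± 0.40. It was 0.12 without MgPA-Gel 1 and, in the model that includes muscle level, -0.08. Processed pseudogenes annotated with the same protein held 3.67% of the Ldha and pseudogene counts, so the copies were a small part of its level. Ldha held 92.5% to 98.7% of the lactate dehydrogenase FPKM, and the lowest share was in Gel 3, where Ldhb, the heart-type subunit, reached 7.54%. Of 5 other lactate genes tested, 2 had a higher and 3 a lower mean in MgPA-Gel. Bsg, the chaperone of the lactate carriers, was at 414 ± 28.3 and 409 ± 85.9 CPM (SD, n = 3 each). The carrier Slc16a1 was at 37.4 ± 7.21 and 52.6 ± 30.5 CPM. Slc16a3, the lactate exporter of glycolytic cells, was at 48.7, 71.0 and 15.6 CPM in Gel against 72.8, 232 and 61.0 CPM in MgPA-Gel, with a log2 fold change of 1.43 ± 0.72 (edgeR adjusted p = 0.998). Its highest library was MgPA-Gel 2, as for Slc2a1 and Hk2, at 3.18-fold the next.

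Pdk1 varied least of the 10 genes. It was at 21.9, 25.3 and 21.2 CPM in Gel against 19.9, 16.0 and 26.3 CPM in MgPA-Gel, and MgPA-Gel held both its lowest and its highest library. The log2 fold change was -0.13 ± 0.22 and the within-group SD was above that of 34.3% of the genes tested. Pdk3 held the largest share of PDH kinase FPKM in each library, 36.8% to 59.0%, and Pdk1 held 22.2% to 33.5%.

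**Figure D3:**
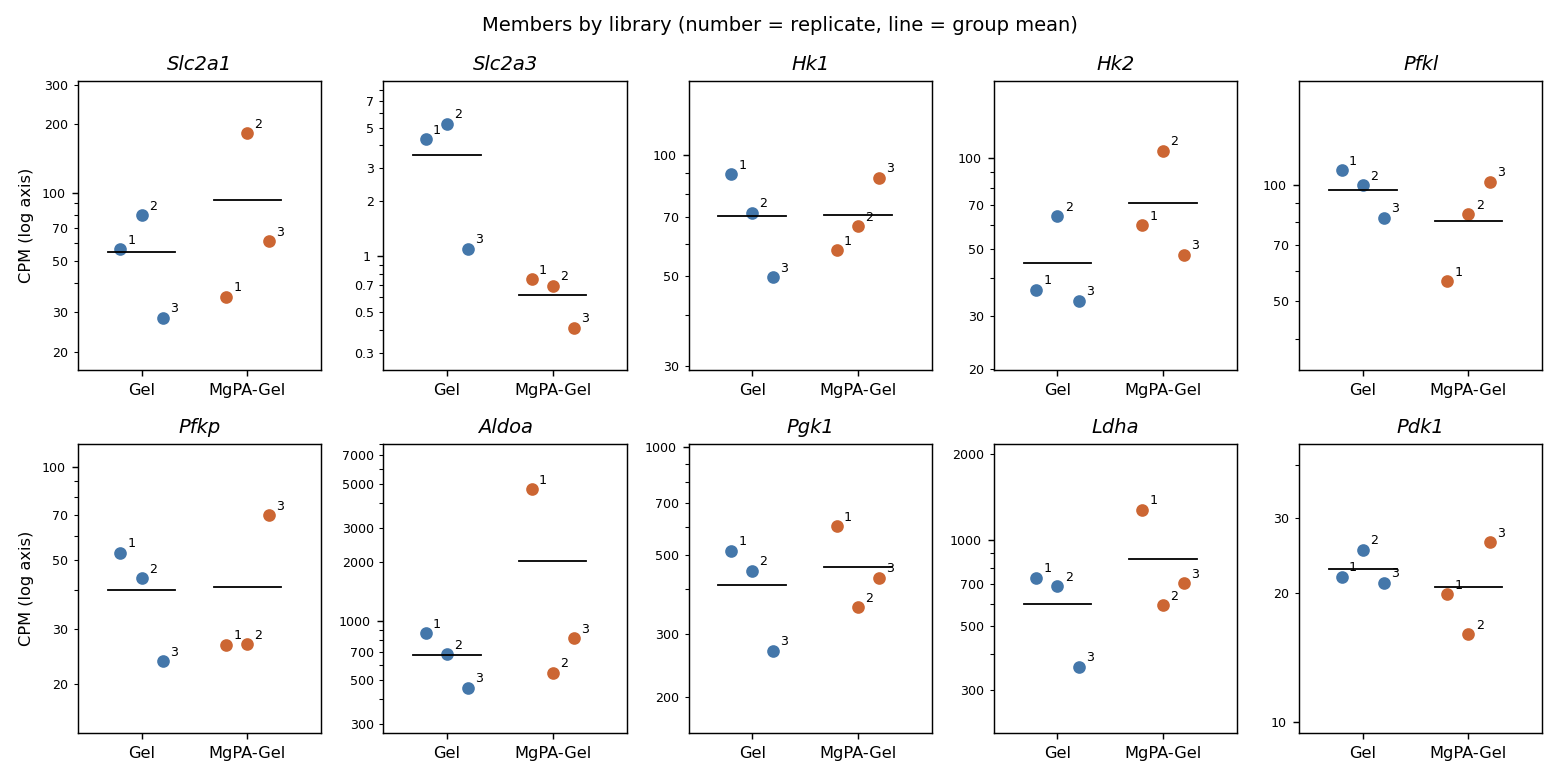
Level in CPM (y axis, log scale, different in each panel) of the 10 genes in the 3 Gel (blue) and 3 MgPA-Gel (orange) libraries, with replicate numbers beside the points and the group mean as a line. Slc2a3 is the only panel without overlap, at 1.10 to 5.26 CPM in Gel against 0.410 to 0.750 CPM in MgPA-Gel, and Aldoa has 1 library at 4728 CPM.

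Across the 9 genes other than Slc2a3 the median log2 fold change was 0.17, beside 0.03 over all genes tested, with 7 higher and 2 lower means. It ran from -0.07 without Gel 3 to 0.36 without Gel 1. Gel 3 was the lowest library in 7 of the 10 genes, all but Slc2a3, Pfkl and Pdk1, and in 36.1% of the 83 other pathway genes tested, against 16.8% of all genes tested. The mean level of the 8 enzyme genes, centred per gene on the log2 scale, was 0.13, 0.08 and -0.56 in Gel 1, 2 and 3 against 0.31, -0.15 and 0.19 in MgPA-Gel 1, 2 and 3. The groups overlapped in this mean, and Gel 3 was its low end. Gel 3 was also the library with the highest osteoblast marker sum, 108092 CPM, and the lowest muscle marker sum, 14.3 CPM; their part in the low values was not tested.

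**Figure D4:**
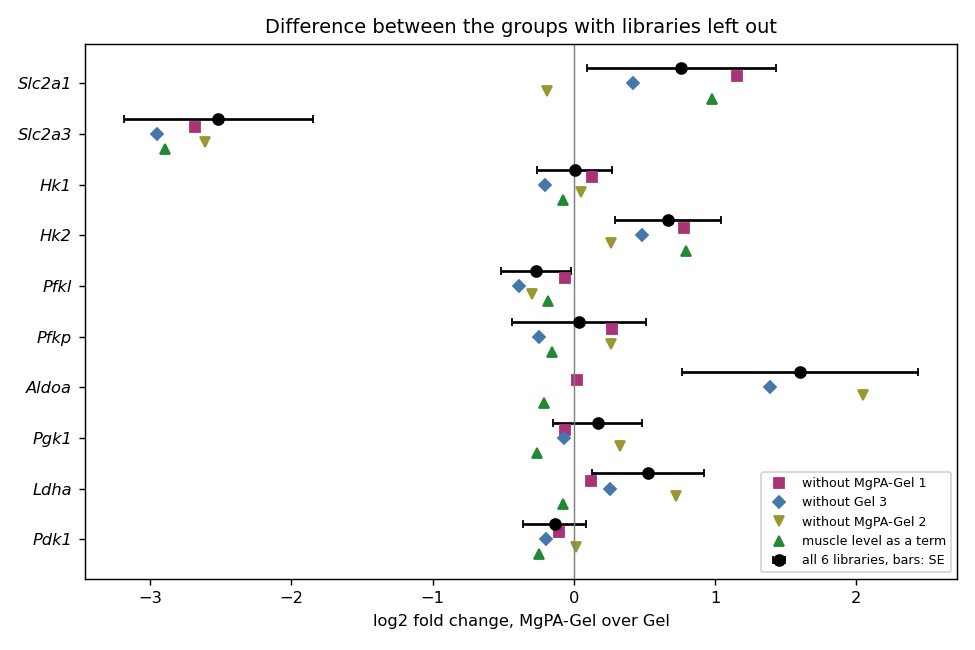
Log2 fold change of MgPA-Gel over Gel (x axis) for the 10 genes (y axis), from all 6 libraries with SE (black), without MgPA-Gel 1 (squares), without Gel 3 (diamonds), without MgPA-Gel 2 (downward triangles) and with the muscle level as a term (upward triangles). Slc2a3 lies between -2.95 and -2.52 in the fits plotted, and between -2.95 and -2.12 when each of the 6 libraries is left out in turn; Aldoa moves from 1.60 to 0.03 without MgPA-Gel 1, and Slc2a1 moves from 0.76 to -0.19 without MgPA-Gel 2.

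The levels of the 10 genes were ordered per length, by mean log2(FPKM + 0.1) over the 6 libraries. The low MgPA-Gel values for which Slc2a3 was chosen are part of its mean. Its place in the order, and the test below of Hk2 above Slc2a3, are therefore not independent of the choice. From high to low the order was Aldoa, Ldha, Pgk1, Pfkl, Hk1, Slc2a1, Pfkp, Pdk1, Hk2 and Slc2a3. Aldoa averaged 840 ± 1034 FPKM, Ldha 455 ± 189 and Pgk1 259 ± 69.6 (SD, n = 6 libraries), then came a step of 2.98 on the log2 scale down to Pfkl at 32.4 ± 7.06 FPKM. The 5 genes from Hk1 to Hk2 began at 26.3 ± 6.03 FPKM and ended at 10.7 ± 4.82 FPKM. Slc2a1, at 28.5 ± 21.6 FPKM, lay above Hk1 by mean FPKM, with 70.0 in MgPA-Gel 2, and below Hk1 by mean log2 level. Slc2a3 closed the order at 1.41 ± 1.44 FPKM, 3.28 ± 1.60 on the log2 scale (SD) below Hk2. Neighbours were compared within libraries by an exact two-sided sign-flip permutation test, whose smallest p with 6 libraries is 0.03125. In 3 pairs it was reached, with the same order in 6 of 6 libraries, namely Ldha above Pgk1 (by 0.76), Pgk1 above Pfkl and Hk2 above Slc2a3, and over 9 neighbours their exact test adjusted p was 0.0938. Pfkl lay above Hk1 in 5 of 6 libraries (exact p = 0.0625, adjusted 0.141) and Aldoa above Ldha in 4 of 6 (exact p = 0.125, adjusted 0.225). The other 4 pairs, from Hk1 and Slc2a1 to Pdk1 and Hk2, had exact p of 0.1875 to 0.75. So 0 of 9 neighbours differed past the adjusted threshold. Even the pairs with the same order in 6 of 6 libraries could not pass, since the smallest p came to 0.0938 after adjustment. The count therefore does not show that neighbouring levels were alike.

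The other genes of the pathway came from 10 lists of 99 symbols, of which 96 were found and 83 passed the filter on low counts. Of these 83, edgeR called 0 at an adjusted p of 0.05 (0% of all genes tested). Among all 14818 genes tested, 8116 had a higher and 6702 a lower mean in MgPA-Gel. Among the 83 it was 53 and 30, at a median log2 fold change of 0.10. At an unadjusted p under 0.05 there were 3 higher and 0 lower, where 1.78% and 0.844% of all genes were. The 3 were Pgam2, Eno3 and Pygm, the muscle forms of phosphoglycerate mutase, enolase and glycogen phosphorylase. They lay at 1058, 2040 and 1133 CPM in MgPA-Gel 1, which was 49.9-fold, 49.0-fold and 29.9-fold above the next library, MgPA-Gel 3, for each. MgPA-Gel 3 had the next highest muscle marker sum, 1655 CPM. Pgam2 held 90.6% of phosphoglycerate mutase FPKM and Eno3 88.1% of enolase FPKM in MgPA-Gel 1, against at most 11.3% and 6.45% in the other libraries.

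Of the 14 other glycolytic enzymes tested, 10 had a higher and 4 a lower mean in MgPA-Gel, at a median of 0.62, and none passed the edgeR threshold. Pkm, the pyruvate kinase of most tissues, was at 824, 728 and 550 CPM in Gel against 963, 897 and 859 CPM in MgPA-Gel. It was the only pathway gene of the 83 that was higher in MgPA-Gel without overlap (log2 fold change 0.37 ± 0.22, edgeR adjusted p = 0.998), where 3.26% of all genes tested were. Gapdh was at 568 ± 137 and 1261 ± 1242 CPM (SD, n = 3 each), with 2694 CPM in MgPA-Gel 1, and 32.2% of the counts on its row and 22 copies lay on the copies. Eno1, the common enolase, was at 842, 707 and 442 CPM in Gel against 364, 506 and 799 CPM in MgPA-Gel, lowest in the library where Eno3 was highest. Gpi, which turns glucose 6-phosphate to fructose 6-phosphate, was at 303 ± 47.9 and 377 ± 182 CPM. Tpi1 and Eno2 count among the 14 and in their median, both with a higher mean. Their levels are uncertain, since 94.1% of the Tpi1 counts lay on 3 copies and 81.6% of the Eno2 counts on 1 copy.

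**Figure D5:**
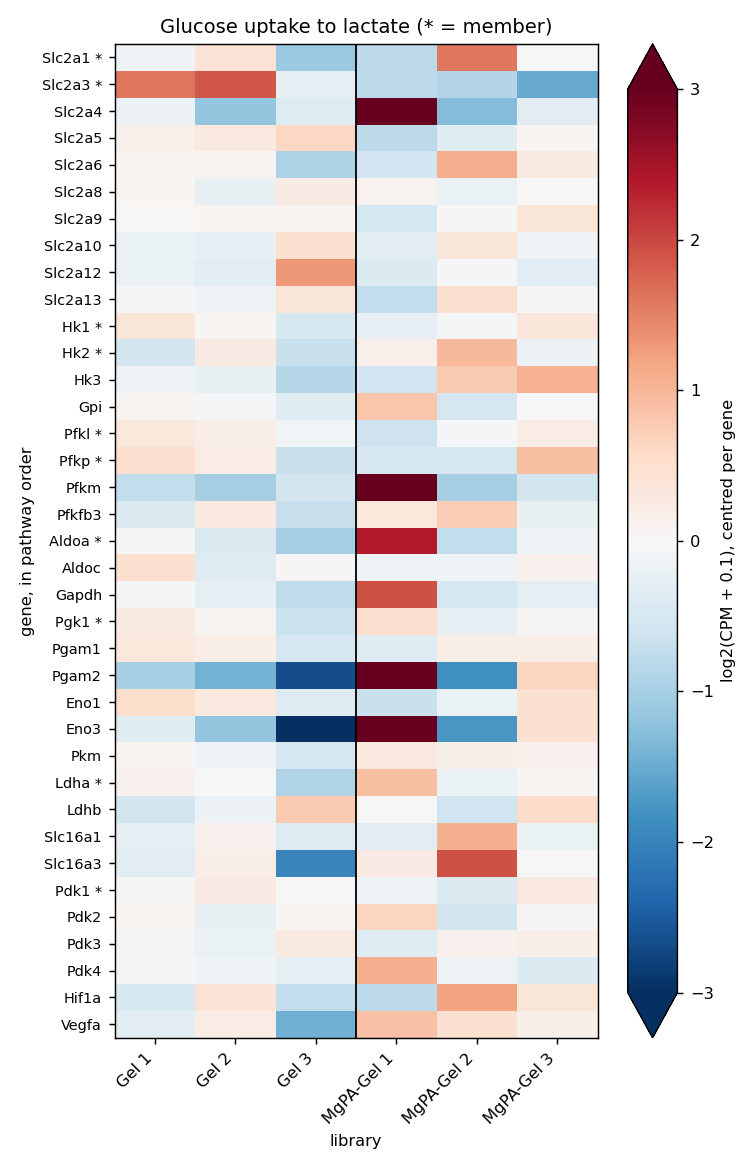
Level of 37 genes from glucose uptake to lactate (y axis, members starred) in the 6 libraries (x axis), as log2(CPM + 0.1) centred on each gene's mean (colour, clipped at -3 and 3). MgPA-Gel 1 is the dark red column for Slc2a4, Pfkm, Aldoa, Gapdh, Pgam2 and Eno3, and Slc2a3 is red in Gel 1 and Gel 2 alone.

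Hypoxia and its targets were read from 20 genes, of which 14 had a higher and 6 a lower mean in MgPA-Gel, at a median log2 fold change of 0.12; none passed the edgeR threshold. Hif1a was at 249, 457 and 208 CPM in Gel against 201, 791 and 447 CPM in MgPA-Gel (log2 fold change 0.65 ± 0.53). Its highest library, MgPA-Gel 2, was also the highest for Slc2a1, Hk2, Slc16a3, the neutrophil genes S100a9 and Csf3r and the macrophage marker sum. The neutrophil marker sum was highest in MgPA-Gel 3, at 3827 against 3367 CPM in MgPA-Gel 2. Other genes peaked elsewhere: Vegfa (179 CPM), Bnip3 (133 CPM), Aldoa, Pgk1 and Ldha were highest in MgPA-Gel 1, where Hif1a was lowest. The part of neutrophil or macrophage RNA in these values was not tested. Epas1, which encodes HIF-2 alpha, was at 316 ± 64.4 and 335 ± 67.9 CPM and the collagen prolyl hydroxylase P4ha1 at 158 ± 11.1 and 138 ± 40.5 CPM (SD, n = 3 each). Car9, a carbonic anhydrase induced by HIF-1, was at 5.55, 2.43 and 2.57 CPM in Gel against 2.19, 2.27 and 2.11 CPM in MgPA-Gel, without overlap (log2 fold change -0.68 ± 0.43, edgeR adjusted p = 0.998). The gap between its groups was small beside the spread within Gel. Pfkfb3, which makes the activator of phosphofructokinase, was at 41.7 ± 15.6 and 60.7 ± 19.7 CPM, again highest in MgPA-Gel 2 at 80.5 CPM; in its list of 5, 4 had a higher mean. In the same list Tigar was at 9.83 ± 0.862 and 12.5 ± 4.60 CPM (SD, n = 3 each), and Pfkfb1 reached 22.5 CPM in MgPA-Gel 1.

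On the routes that leave glycolysis none of the genes tested passed the edgeR threshold. In the pentose phosphate pathway 3 of 6 genes had a higher and 3 a lower mean. Pgls, the 6-phosphogluconolactonase, was at 73.2, 70.2 and 73.8 CPM in Gel against 47.9, 57.9 and 65.3 CPM in MgPA-Gel, without overlap (log2 fold change -0.35 ± 0.16, edgeR adjusted p = 0.998). With Slc2a5 and Car9 it made 3 of 83 pathway genes lower without overlap, where 3.62% of all genes were. Of its most abundant genes, Tkt was at 242 ± 22.8 and 233 ± 56.8 CPM and Taldo1 at 137 ± 23.3 and 174 ± 65.0 CPM (SD, n = 3 each). Of 12 genes of pyruvate import and of the pyruvate dehydrogenase complex and its control, 10 had a higher mean in MgPA-Gel, at a median of 0.18. The pyruvate carrier subunits were at 64.2 ± 6.97 and 84.3 ± 36.1 CPM (Mpc1) and at 58.6 ± 8.60 and 73.2 ± 21.0 CPM (Mpc2). Pdha1, the catalytic subunit that Pdk1 switches off, was at 110 ± 12.0 and 113 ± 12.2 CPM. All 3 gluconeogenesis genes tested had a lower mean, among them Pck2 at 56.9 ± 10.3 and 44.3 ± 7.27 CPM, G6pc3 at 41.7 ± 3.52 and 38.2 ± 3.99 CPM and Pc at 21.6 ± 4.31 and 20.7 ± 1.36 CPM. In the glycogen list 8 of 10 had a higher mean, with Pygm and Pgm1 highest in MgPA-Gel 1 (Pgm1 at 41.6 ± 4.82 and 146 ± 176 CPM), and Ugp2 at 86.0 ± 7.75 and 89.3 ± 30.2 CPM.

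The genes whose pattern was nearest to Slc2a3 were found by the mean absolute difference of centred log2 CPM over the 6 libraries, among 11444 named genes of at least 1 mean log2 CPM. They were Ccl24 (0.55), a chemokine of eosinophils, Hap1 (0.55), a partner of huntingtin, Abca4 (0.59), Pla2g2d (0.62), a secreted phospholipase, and Cdhr5 (0.63). Ccl24 was at 5.89, 6.64 and 1.69 CPM in Gel against 1.81, 2.52 and 1.76 CPM in MgPA-Gel, so it shared the low value of Gel 3 and its groups overlapped. Pla2g2d, the most abundant of them, was at 34.8, 67.5 and 26.2 CPM in Gel against 10.4, 18.4 and 17.5 CPM in MgPA-Gel. Nearest to the mean of the 8 enzymes, among 11436 genes, were Mrpl45 (0.05), Twf2 (0.05), Gatb (0.07), Rbx1 (0.07) and Usf3 (0.08). Mrpl45, a mitochondrial ribosomal protein, was at 41.5, 38.8 and 27.9 CPM in Gel against 46.9, 31.7 and 42.6 CPM in MgPA-Gel, with Gel 3 lowest as for the enzymes. The differences were larger in the first list than in the second, whose pattern is a mean over 8 genes.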

How the data were processed

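Poly-T selected RNA (1.3 µg per library, fragments of 370 to 420 bp, per the labels' protocols) was measured in 6 libraries, grouped by title. The submitters' processing notes name edgeR 3.22.5, DESeq2 1.20.0, featureCounts 1.5.0-p3, StringTie 1.3.3b, HISAT2 2.0.5 and fastp, without their roles. Strandedness, build and the treatment of multi-mapped reads were not given in the sources used here. Upstream, the authors deposited whole gene counts, not normalized, and FPKM, which equal counts over gene length and over a library size of 13.7 to 17.3 M. Blank rows of the count table, 11692 of 46230 with 0 counts, were left out, and 2 unnamed columns were not used.

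The comparison of counts used edgeR 4.0.16 (R 4.3.3, filterByExpr, TMM, robust glmQLFit and glmQLFTest, two-sided, Benjamini-Hochberg over 14818 genes), after the fit was tested on simulated data. Spread between libraries was a coefficient of variation of 41.3%. The simulated data had less spread than this and changed only genes more abundant than Slc2a3. They checked that the fit ran correctly and not its power in these data. DESeq2 1.42.0 and limma 3.58.1 were alternatives. The muscle term was each library's mean log2 level of the muscle markers. Within-group SDs are of log2 CPM. HIF and MEF2 motifs were searched in RefSeq promoter windows.

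The genes and lists were chosen with earlier results of these data known. Named genes were the 10 members, pathway genes without overlap or among the 3 highest by FPKM in a list, and the 5 nearest in pattern. Ldhb, Pdk3, Pgam2, Eno2, Eno3, Tpi1, Vegfa and Bnip3, outside this rule, were named after their values were seen. A gene that the rule would name is not reported here.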

Additional observations from a re-analysis of the deposited data

How the results depend on the processing

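The Slc2a3 value was below 0 in 20 of 20 alternatives (-3.13 to -1.16), from -2.95 to -2.12 with each library left out. This contrast chose the gene and its groups did not overlap, so no single library left out could change the sign. Nothing is read from the sign of this value or of its difference from Slc2a1. The Slc2a3 value moved by more than the spread between replicates with log2(FPKM + 1) (-1.16) and with both GLUT3 rows summed (-1.57). The difference of Slc2a3 and Slc2a1, -3.28, was -1.67 with log2(FPKM + 1), -2.33 with the rows summed, and -3.83 to -2.42 with each library left out. The number of genes past the threshold, 0, was 10 with DESeq2 (8 higher, 2 lower) and 2 without MgPA-Gel replicate 2 (0 to 2 with each library left out); the cause was not tested. The median of the other 9 genes was -0.07 to 0.36 with each library left out and turned to -0.15 with the muscle level as a term. Aldoa was 0.03 without MgPA-Gel 1, 0.24 without it and Gel 1, and -0.21 without it and Gel 3; Ldha was then -0.16 and Pgk1 -0.32. All 9 neighbours kept the order of levels in 8 of 8 alternatives, each of which used means on the log2 scale. By mean FPKM, Slc2a1 lay above Hk1.

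Deviations from the group mean correlated at 0.25, 0.20 and -0.03 between same-numbered libraries, and at -0.29 to 0.06 between differently numbered ones. With 3 libraries a group, these values cannot settle whether the numbers pair the libraries. With the replicate block 0 genes passed, Slc2a3 was -2.32 and Aldoa 0.98. The difference of Slc2a3 and Slc2a1 was then -2.89. Depth limits Slc2a3 most, at 7 to 91 counts. With 3 libraries a group and 1 rich in muscle RNA, a difference in the other genes of the size seen here could not be told from the spread.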
